A study of Mus musculus with 2 samples.

Results

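Messenger RNAs that drive inflammation are removed quickly once they are made, and the kinases that call for them are switched off just as quickly. Zfp36 (tristetraprolin) and its relatives Zfp36l1 and Zfp36l2 are zinc-finger proteins that bind AU-rich elements in the 3′ untranslated region (UTR) of cytokine mRNAs and recruit the deadenylation machinery, so that the mRNA is degraded. The dual-specificity phosphatases of the Dusp family remove phosphate from both the threonine and the tyrosine of activated MAP kinases. Signalling through MAP kinases also leads to the phosphorylation and inactivation of Zfp36. Both families are induced by the signals they restrain, and in the intestine they are studied as brakes that keep macrophages tolerant of microbes. Levels of 9 such genes were described here, 3 decay factors (Zfp36, Zfp36l1, Zfp36l2) and 6 phosphatases (Dusp1, Dusp2, Dusp4, Dusp5, Dusp6, Dusp16). They were taken by symbol from 31053 features, and each symbol named 1 feature.

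The cells came from the colonic lamina propria of mice and were profiled by droplet single-cell RNA sequencing of mRNA 3′ ends. One library was from wild-type (WT) mice and the other from mice lacking a long non-coding RNA, given in the labels as LncRNA17Rik and called lncLy6c in the study (KO), and per the study each was a pool of male mice 8 weeks old. The knockout was present in every cell of the animal, not in macrophages alone. Both libraries carry the label cd11b+, and live cells were stained and sorted after density separation. With 1 pooled library per genotype no test between genotypes was possible: every interval below is an exact 95% interval that covers counting error only, and a difference between WT and KO cannot be told apart from a difference between these 2 preparations.

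The WT library held 3185 barcodes and 22191774 unique molecular identifiers (UMIs), and the KO library 3020 barcodes and 23384895 UMIs. The WT barcodes are far fewer than the WT cells the study describes, so the WT values may rest on part of its cells. Cells with 200 to 6000 genes and at most 15% mitochondrial UMIs were kept, 2597 in WT and 2514 in KO, with medians of 5073 and 6564.5 UMIs per cell. No barcode was shared by the libraries among the kept cells. Clustering gave 23 clusters, of which 21 could be named from marker genes and are called "-like" classes, and 8 classes with at least 50 cells in both libraries were compared. LncRNA17Rik and lncLy6c match no feature symbol, so the deletion was not checked here. Itgam, the gene of CD11b, had a UMI in 58.2% of WT and 57.4% of KO resident macrophage-like cells, but in only 12.6% and 1.18% of B cell-like and in 14.7% and 4.55% of T cell-like cells, so these lymphocytes stand outside the label. The WT library held 235 plasma cell-like, 123 epithelial cell-like and 80 fibroblast-like cells against 5, 17 and 21 in KO, and levels in these 3 classes are given for WT alone.

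Resident macrophage-like cells (306 in WT, 129 in KO) formed a single cluster with C1qa at 3429 CPM in WT and 2849 in KO, where CPM stands for UMIs per 1000000 UMIs of the class and library. Inflammatory monocyte-like cells (457 in WT, 354 in KO) were 3 clusters that the libraries filled unequally. A cluster led by Ly6i, Cxcl9 and Ly6c2 held 391 WT and 23 KO cells, a cluster led by Chil3, Ace and Lyz2 held 49 and 294, and the smallest held 17 and 37. A cluster led by Retnla, Lpl and Ccl24 (18 WT, 147 KO cells) stayed unnamed. Median depth was higher in KO, at 4920 and 6870 UMIs in WT and KO resident macrophage-like cells and at 6130 and 9243.5 in inflammatory monocyte-like cells, so shares of cells with a UMI were compared at equal depth, after cells with under 2000 UMIs were left out and the others thinned to 2000. This left out 72 of 306 WT and 19 of 129 KO resident macrophage-like cells, 36 of 457 and 28 of 354 inflammatory monocyte-like cells, 29 of 79 and 26 of 272 neutrophil-like, 72 of 259 and 34 of 383 cDC1-like, 30 of 199 and 1 of 85 B cell-like and 202 of 225 and 383 of 411 eosinophil-like cells, so the loss was unequal between the libraries.

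The 3 decay factors and Dusp1 and Dusp2 carry in their own 3′ UTRs the heptamer TATTTAT (U in place of T in the mRNA), the core to which Zfp36 proteins bind. It was searched on the transcript strand of the GENCODE M21 annotation. Zfp36 lies on chromosome 7 at chr7:28376784-28380253 (GRCm38, minus strand) and has 3 heptamers in a 3′ UTR of 774 bases. As many were held by 1.27% of 2355 annotated 3′ UTRs of similar length. Zfp36l1 (chr12:80107754-80113013, minus strand) has 3 in 1835 bases, Zfp36l2 (chr17:84183931-84187947, minus strand) 3 in 1822 bases, and the main transcript of Dusp1 (chr17:26505590-26508519, minus strand) 3 in 690 bases. As many stood in 4.21%, 4.20% and 1.26% of UTRs of similar length. Dusp2 (chr2:127336159-127338376, plus strand) has 1 heptamer in 581 bases, and 15.9% of similar UTRs have at least 1. Over all 20501 annotated UTRs, 26.4% hold the heptamer. Dusp4 (chr8:34807297-34819894, plus), Dusp5 (chr19:53529109-53542431, plus), Dusp6 (chr10:99263231-99267489, plus) and Dusp16 (chr6:134715468-134792625, minus) hold none. The windows of 30 bases below are shown, with the heptamer in capitals, because they are the element through which these mRNAs could be read by the factors that 3 of them encode. They lie in the last exon, at chr7:28376965-28376994 and chr7:28376950-28376979 for Zfp36, chr12:80108166-80108195 for Zfp36l1, chr17:84184913-84184942 for Zfp36l2, chr17:26506158-26506187 and chr17:26505869-26505898 for Dusp1, and chr2:127338304-127338333 for Dusp2. A match to letters is a description and not evidence of binding. Annotated genes on the opposite strand overlap the main transcripts of Zfp36, Zfp36l1, Zfp36l2, Dusp5 and Dusp16, and none on the same strand overlaps the main transcript of any member. The whole Dusp1 gene, which reaches beyond its main transcript, is overlapped by 4 annotated genes.
Zfp36 site 1: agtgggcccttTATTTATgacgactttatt
Zfp36 site 2: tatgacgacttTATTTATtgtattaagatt
Zfp36l1 site 3: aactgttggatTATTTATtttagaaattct
Zfp36l2 site 1: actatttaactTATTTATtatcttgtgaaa
Dusp1 site 1: gagctggtcctTATTTATttaacacccccc
Dusp1 site 2: gtttttaccttTATTTATttttgtgtaggt
Dusp2 site 1: acagcactttaTATTTATatagaacattga

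Orders of levels cover the 11 classes with at least 50 WT cells, and smaller named classes are given apart. The level of each gene depended strongly on the cell class, and the 2 families were spread over the classes in different ways. UMIs of this 3′ assay count molecules and do not grow with transcript length, so levels of different genes are set side by side as CPM. Among these 11 classes Zfp36 was highest in granulocytes, monocytes and macrophages. In WT its level was 2717 CPM (interval 2494 to 2954) in neutrophil-like, 1822 in inflammatory monocyte-like, 1821 in eosinophil-like, 1676 in resident macrophage-like, 1227 in cDC1-like and 1088 in cDC2-like cells. It was 817 CPM in B cell-like, 621 in epithelial cell-like, 450 in T cell-like, 448 in plasma cell-like and 372 in fibroblast-like cells. The intervals of inflammatory monocyte-like, eosinophil-like and resident macrophage-like cells overlapped their neighbours in this order, as did those of the T cell-like, plasma cell-like and fibroblast-like cells, and the other steps were larger than counting error. In KO the order began differently, with resident macrophage-like (1500 CPM) and inflammatory monocyte-like cells (1438 CPM) ahead of neutrophil-like cells (1320 CPM). Zfp36 was the 77th most abundant of 13361 detected genes in WT resident macrophage-like cells and the 317th of 12838 in WT T cell-like cells. Of the smaller classes, the 17 WT ILC-like cells had Zfp36 at 1909 CPM (interval 1633 to 2218). The 19 WT mature DC-like cells had it at 1369 CPM.

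Zfp36l1 and Zfp36l2, which control quiescence and differentiation of lymphocytes, had other orders. Zfp36l1 was highest in T cell-like (926 CPM), fibroblast-like (903 CPM) and B cell-like cells (811 CPM), with overlapping intervals, and stood at 461 CPM in resident macrophage-like and at 397 in inflammatory monocyte-like cells. Zfp36l2 was highest in T cell-like cells, at 1436 CPM (interval 1373 to 1501), resident macrophage-like cells followed at 711 CPM, and cDC2-like (363 CPM), epithelial cell-like (337 CPM), B cell-like (335 CPM) and plasma cell-like cells (331 CPM) were lowest, with overlapping intervals. Smaller classes reached higher, with Zfp36l1 at 2481 CPM (interval 2165 to 2831) in the 17 WT ILC-like cells and Zfp36l2 at 1920 CPM (interval 1705 to 2154) in the 26 WT NK cell-like cells. Of the UMIs of the 3 decay factors together, Zfp36 supplied 58.8% in WT resident macrophage-like, 78.9% in WT neutrophil-like and 16.0% in WT T cell-like cells, where Zfp36l2 supplied 51.1%. Summed, the 3 factors were at 3443 CPM in WT neutrophil-like, 2848 CPM in WT resident macrophage-like and 2812 CPM in WT T cell-like cells. Sums were taken in the 8 classes compared between the libraries, and among these the WT sum was lowest in cDC2-like cells, at 1769 CPM.

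Dusp1, the nuclear phosphatase that inactivates p38 and JNK and is the best known partner of Zfp36, followed Zfp36 across classes. It was at 5423 CPM in WT neutrophil-like, 2963 in eosinophil-like, 1954 in inflammatory monocyte-like and 1863 in resident macrophage-like cells, and at 482 CPM in B cell-like and 220 CPM in plasma cell-like cells. In KO, eosinophil-like cells (3126 CPM) and neutrophil-like cells (2919 CPM) were highest, with overlapping intervals. Across the 19 units of class and library with at least 50 cells, log2(CPM + 1) of Zfp36 and Dusp1 correlated with r = 0.85, with 0.87 over the 11 WT units and 0.83 over the 8 KO units. Zfp36 and Zfp36l1 had r = -0.50, and Zfp36 and Zfp36l2 0.075. These values describe units that share libraries and depth and are not independent samples. Dusp2, an inducible nuclear phosphatase of haematopoietic cells, was at 881 CPM in WT neutrophil-like, 435 in inflammatory monocyte-like, 413 in B cell-like and 401 in resident macrophage-like cells. Of the smaller classes, the 26 WT NK cell-like cells had Dusp2 at 664 CPM (interval 540 to 808). Among the 11 classes Dusp2 was lowest in epithelial cell-like (9.72 CPM), fibroblast-like (27.6 CPM) and plasma cell-like cells (40.7 CPM). The intervals of neighbours in this order overlapped.

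Dusp5, a nuclear phosphatase specific for ERK, was highest in eosinophil-like cells at 1288 CPM (interval 1157 to 1430), and T cell-like cells (650 CPM) and neutrophil-like cells (637 CPM) followed with overlapping intervals. Among the smaller classes it was at 1129 CPM (interval 966 to 1312) in the 26 NK cell-like and 1012 CPM in the 19 mature DC-like WT cells. Dusp6, its cytoplasmic counterpart, was confined to fewer cells. It reached 536 CPM in WT eosinophil-like cells, and the next classes were fibroblast-like (108 CPM), epithelial cell-like (90.1 CPM) and resident macrophage-like cells (81.7 CPM), whose intervals overlapped. Dusp4, a nuclear phosphatase for ERK and JNK, was a gene of plasma cell-like cells, with 152 CPM and a UMI in 69.8% of WT cells, against 49.7 CPM in B cell-like and 28.0 CPM in T cell-like cells. In resident macrophage-like cells it had 8 UMIs in WT and 3 in KO, and fibroblast-like cells had 1, so its level in macrophages could not be told from that of free RNA. Dusp16, which acts on JNK and p38, was at 234 CPM in WT neutrophil-like, 99.4 in cDC2-like, 88.8 in inflammatory monocyte-like and 57.3 in resident macrophage-like cells.

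**Figure D1:**
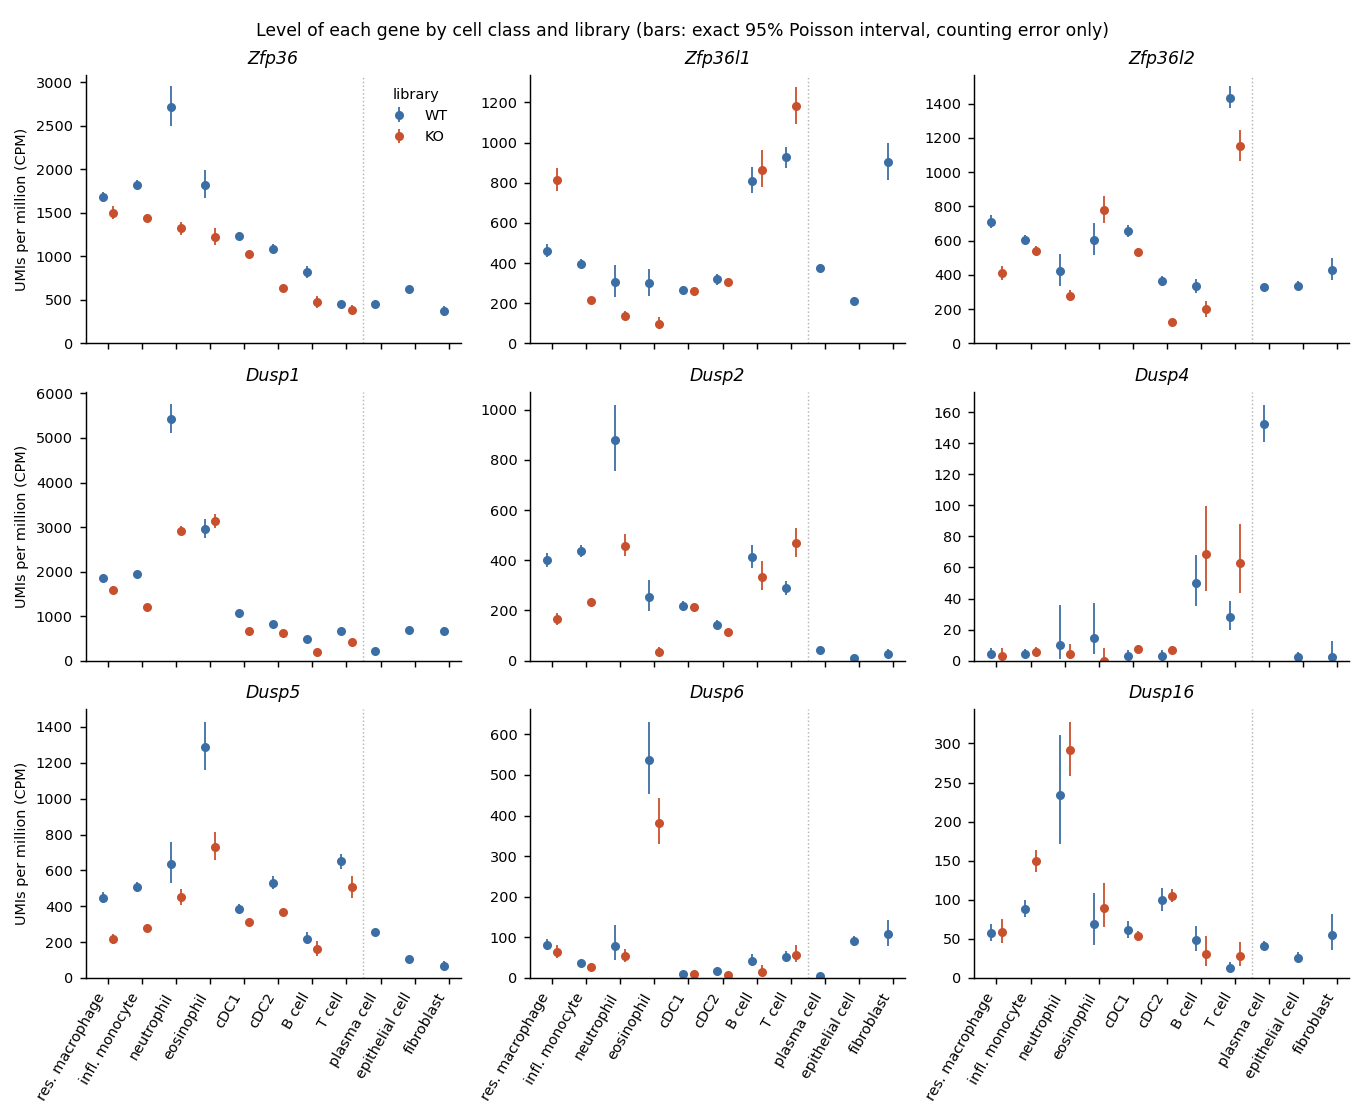
Level of each of the 9 genes in CPM (vertical axis) by cell class for the WT and KO libraries; bars are exact 95% Poisson intervals, and the 3 classes right of the dotted line had under 50 KO cells. In WT, Zfp36 and Dusp1 peaked in neutrophil-like cells (2717 and 5423 CPM), Zfp36l2 in T cell-like cells (1436 CPM), Dusp4 in plasma cell-like cells (152 CPM) and Dusp6 in eosinophil-like cells (536 CPM). In KO, Zfp36 was highest in resident macrophage-like cells (1500 CPM) and Dusp1 in eosinophil-like cells (3126 CPM), each with an interval that overlapped that of the next class.

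By a rule of likeness, the 3 genes with the highest correlation to each member over the same 19 units were listed among 9149 genes. Those for Zfp36 were Slc35b2 (r = 0.95), Osm (0.94) and Prkcd (0.91), and those for Dusp1 were Abr (0.95), Rnf149 (0.95) and Il1rn (0.92). Osm encodes the cytokine oncostatin M and Il1rn the interleukin-1 receptor antagonist. Dusp2 ran with Tnfaip8l2, Tgif1 and Nfkbid (0.87 to 0.86), Dusp4 with Lax1, Pou2af1 and Shisa5 (0.90 to 0.83), Dusp5 with Ipcef1, Arhgap9 and Gmfg (0.90 to 0.84), Dusp6 with Cpd, Rflnb and Npepps (0.93 to 0.88) and Dusp16 with Mcemp1, Treml4 and Pilra (0.93 to 0.91). Zfp36l1 was most like Ier5l (0.85), Ephx1 and Snhg12, and Zfp36l2 had the weakest neighbours, Inpp5b, Wdyhv1 and Ppp2r5c (0.77 to 0.73).

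The question between genotypes was whether these brakes were set differently in gut macrophages that lacked the lncRNA, and whether a difference was particular to macrophages. Most members were lower in KO in most classes. A change was counted where the KO to WT ratio reached 1.5-fold (with 1 CPM added to each level) and at least 50 UMIs were present over both libraries, which 66 of 72 pairs of member and class had. Of these, 24 were lower and 6 higher in KO, against 18.4% lower and 8.81% higher over 41266 pairs of any gene and class. After subtraction of the median log2 ratio of all genes of the class, 18 of the 66 were lower and 6 higher. The interval of the log2 ratio lay below 0 in 42 of the 66 pairs and above 0 in 7, where the shares over all pairs of gene and class were 25.8% and 12.9%. Abundant genes such as these have narrower intervals than the average gene. In resident macrophage-like cells 1 of 8 members with enough UMIs was higher and 3 were lower, beside 7.19% and 22.1% of 5671 genes. In inflammatory monocyte-like cells 1 of 8 was higher and 4 were lower, beside 8.06% and 17.9% of 7034 genes.

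The same counts were made in the other classes. Neutrophil-like cells had 0 members higher and 5 of 8 lower, beside 14.7% and 18.0% of all genes, and eosinophil-like cells had 0 higher and 3 of 8 lower, beside 18.8% and 13.7%. Among dendritic cells, cDC1-like cells had 1 of 9 higher and 1 lower (6.19% and 10.6% of all genes) and cDC2-like cells 1 of 9 higher and 3 lower (9.11% and 21.7%). B cell-like cells had 0 of 8 higher and 4 lower (7.03% and 16.5%), and T cell-like cells were alone in having more members higher than lower, 2 and 1 of 8 (9.23% and 26.6%). All genes of a class had a median log2 ratio that was itself below 0 in 7 of these 8 classes, at -0.22 for the resident macrophage-like class and -0.15 for the inflammatory monocyte-like class, and ratios are read beside it.

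Zfp36 was lower in KO in every class compared, by amounts that were small in resident macrophages and large in neutrophils. Resident macrophage-like cells had it at 1676 (WT) and 1500 CPM (KO), a log2 ratio of -0.16 (interval -0.25 to -0.07). This step is about the size of the shift of all genes in that class, and after subtraction of the median of all genes it was 0.06. Inflammatory monocyte-like cells had 1822 and 1438 CPM, a log2 ratio of -0.34 (interval -0.40 to -0.28). The 3 monocyte clusters gave -0.48 (interval -0.66 to -0.30), -0.42 (interval -0.55 to -0.29) and -0.36. Each had few cells of 1 library, with 23 KO, 49 WT and 17 WT cells in this order. The part of cluster make-up in the class ratio was not tested. In this class the 10 resident macrophage markers summed to 2046 CPM in WT and 966 CPM in KO, with 1 at 0 in each, and the 8 mature dendritic cell markers to 245 and 64.1 CPM, with 1 at 0 in each. Their part in the ratios of this class was not tested.

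Outside these classes the difference was larger in most cases. In neutrophil-like cells Zfp36 was at 2717 (WT) and 1320 CPM (KO), a log2 ratio of -1.04 (interval -1.19 to -0.89), the lowest ratio of Zfp36 among the classes, though its interval overlapped that of B cell-like cells (-1.03 to -0.55). Lower levels of at least 1.5-fold were also found in cDC2-like cells (1088 and 638 CPM, -0.77) and in B cell-like cells (817 and 475 CPM, -0.78), and eosinophil-like cells (1821 and 1223 CPM, -0.57) stood just under that threshold. The cDC2-like class was filled unequally, since a cluster led by Mgl2 and Ccl17 held 2 WT and 127 KO cells, and the main cluster (155 WT and 311 KO cells) alone gave -0.74 for Zfp36. In cDC1-like (1227 and 1025 CPM, -0.26) and T cell-like cells (450 and 383 CPM, -0.23) the ratio was smaller, and its sign changed under some alternatives, over ranges of -0.27 to 0.10 and -0.40 to 0.13. The counting interval of Zfp36 lay below 0 in 8 of 8 classes, which held for 1.66% of the 1509 genes with enough UMIs in all 8. Dusp5 was the other member with 8 of 8. Intervals were below 0 in at least 7 of 8 classes for 4.84% of these genes, and Zfp36l2 and Dusp1 reached 7.

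At equal depth of 2000 UMIs, 87.6% of WT and 84.5% of KO resident macrophage-like cells had a Zfp36 UMI, with overlapping binomial intervals (82.7% to 91.5% and 76.4% to 90.7%). Inflammatory monocyte-like cells gave 91.2% and 85.9%, and neutrophil-like cells 92.0% and 73.2%. Before thinning they were 88.6% and 90.7%, 97.2% and 96.9%, and 93.7% and 84.2% in these 3 classes. No class here is known to lack Zfp36, and the lowest thinned WT share was 38.9% in fibroblast-like cells (median depth 5301.5 UMIs), far under the macrophage share.

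Zfp36l1 differed in opposite directions in the 2 macrophage-lineage classes. For resident macrophage-like cells the levels were 461 (WT) and 815 CPM (KO), a log2 ratio of 0.82 (interval 0.68 to 0.96), and no other member was higher by 1.5-fold there. For inflammatory monocyte-like cells they were 397 (WT) and 216 CPM (KO), a ratio of -0.88 (interval -1.02 to -0.74). The shares of cells with a UMI at equal depth had the same directions, with 56.8% in WT and 70.0% in KO resident macrophage-like cells and 45.8% and 27.6% in inflammatory monocyte-like cells. The direction in each class held under 14 of 14 alternatives, but the size did not. The ratio ranged from 0.38 to 1.04 in resident macrophage-like cells and from -1.65 to -0.32 in inflammatory monocyte-like cells. In resident macrophage-like cells it was 0.43 with the Retnla, Lpl and Ccl24 cluster counted in the class, and the 1.5-fold call was then lost. That call was also lost with every barcode, at resolution 0.5 and with each library clustered alone. Within the monocyte clusters it was -1.19, -0.50 and 0.32, the last with an interval that holds 0.

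In granulocytes Zfp36l1 was lower in KO as well, but on few molecules. Neutrophil-like cells had 61 WT and 130 KO UMIs (304 and 137 CPM, log2 ratio -1.15), and 5 cells held 67.2% of the WT UMIs. Eosinophil-like cells had 82 and 45 UMIs (299 and 96.2 CPM, -1.64). In neutrophil-like cells the 6 plasma cell markers summed to 1562 CPM in WT and 29.5 CPM in KO, with 1 and 4 at 0, the 7 B cell markers to 179 and 1.05 CPM, with 1 and 6 at 0, and the 8 epithelial markers to 219 and 47.3 CPM, with 2 and 0 at 0. Their part in the neutrophil-like ratios, that of Zfp36 included, was not tested. In the lymphocytes, where Zfp36l1 is most abundant, B cell-like cells were at 811 and 866 CPM (0.09, interval -0.10 to 0.29) and T cell-like cells at 926 and 1183 CPM (0.35, interval 0.21 to 0.49).

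Zfp36l2 was lower in KO in 7 of 8 classes. Its lowest ratio was in cDC2-like cells, with 363 (WT) and 124 CPM (KO) (-1.55, interval -1.70 to -1.40). The main cDC2-like cluster alone, led by Plet1, Tbc1d4 and H2-Oa, gave -1.63, while with each library clustered alone the class value was -0.59. Inflammatory monocyte markers summed to 1584 and 702 CPM in this class, with 0 of 10 at 0, and plasma cell markers to 646 and 19.6 CPM, with 1 of 6 at 0 in each. In cDC1-like cells inflammatory monocyte markers summed to 2226 and 892 CPM (1 and 0 of 10 at 0) and mast cell markers to 599 and 53.6 CPM (1 and 5 of 7 at 0), and the part of these in the dendritic cell ratios was not tested. Resident macrophage-like cells were at 711 and 411 CPM (-0.79, interval -0.95 to -0.63), and their share of cells with a UMI at equal depth was 62.0% in WT and 42.7% in KO. The 2 paralogs therefore had opposite signs in this class. Zfp36l2 supplied 25.0% of decay factor UMIs in WT and 15.1% in KO, while Zfp36l1 supplied 16.2% and 29.9%, and the sum of the 3 factors was 2848 (WT) and 2725 CPM (KO) with a log2 ratio of -0.06 (interval -0.13 to 0.00). For inflammatory monocyte-like cells the sum was 2825 and 2195 CPM (-0.36). Eosinophil-like cells had more Zfp36l2 in KO, 602 and 778 CPM (0.37, interval 0.10 to 0.64). With the stricter cell filter this ratio turned to -0.03.

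**Figure D2:**
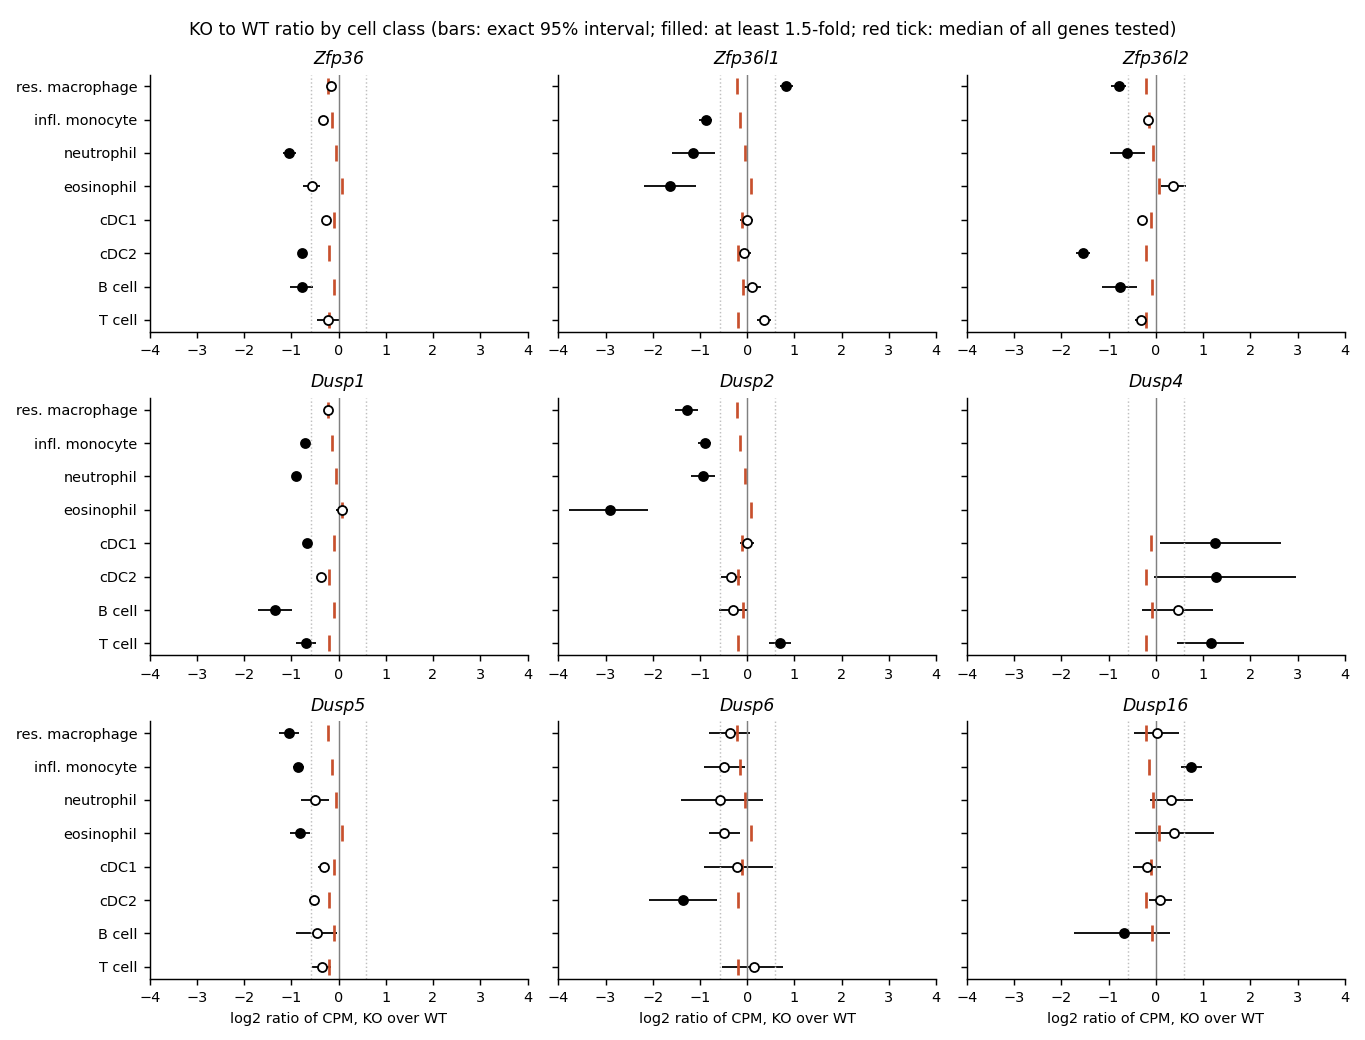
Log2 ratio of CPM, KO over WT (horizontal axis), of each gene in the 8 classes compared; bars are exact 95% intervals, filled points reach 1.5-fold (dotted lines), and the red tick is the median of all genes of that class. Zfp36 and Dusp5 lie left of 0 in all 8 classes, and Zfp36l1 lies at 0.82 in resident macrophage-like and at -0.88 in inflammatory monocyte-like cells.

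Dusp1 was lower in KO in 7 of 8 classes and kept its sign in every class under every alternative run. Its levels in resident macrophage-like cells were 1863 (WT) and 1596 CPM (KO), a log2 ratio of -0.22 (interval -0.31 to -0.14) that is about that of the median gene. Those of inflammatory monocyte-like cells were 1954 and 1198 CPM (-0.71, interval -0.77 to -0.65), and the 3 clusters gave -1.14, -0.84 and -0.73. Dusp1 and Zfp36 thus both stood, in the main setting, near the shift of all genes in resident macrophage-like cells. Both stood under it in inflammatory monocyte-like cells. At resolution 0.5 the resident macrophage-like ratios were lower, at -0.61 for Dusp1 and -0.52 for Zfp36.

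In neutrophil-like cells Dusp1 was at 5423 (WT) and 2919 CPM (KO) (-0.89, interval -1.0 to -0.79). Nearly every neutrophil-like cell had a UMI, 98.0% in WT and 98.4% in KO at equal depth. B cell-like cells had the lowest ratio (482 and 190 CPM, -1.34). In that class the 8 neutrophil markers summed to 1040 CPM in WT, with 0 at 0, and 66.0 CPM in KO, with 3 at 0, the 10 resident macrophage markers to 178 and 25.4 CPM, with 2 and 6 at 0, and the 6 plasma cell markers to 1693 and 259 CPM, with 1 and 2 at 0. Their part in the lower Dusp1 and Zfp36 of B cell-like cells was not tested. T cell-like cells (668 and 414 CPM, -0.69) and cDC1-like cells (1070 and 675 CPM, -0.66) also reached 1.5-fold, but these calls were lost with every deposited barcode (-0.081 in T cell-like cells) and with the stricter cell filter (-0.18 in cDC1-like cells). The exception was the eosinophil-like class, at 2963 and 3126 CPM (0.08, interval -0.05 to 0.20). In the same eosinophil-like cells Zfp36 was at -0.57 and Dusp5 at -0.82, and their median depth was only 792 UMIs in WT and 971 in KO. Cycling cDC1-like cells, a cluster of 28 WT and 103 KO cells led by Pclaf and Top2a, also went the other way, with Dusp1 at 0.21 (interval 0.03 to 0.40) and Zfp36 at 0.22 (interval 0.07 to 0.37).

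Zfp36 and Dusp1 were each found in most cells, so many cells had both whether or not the genes go together. At 2000 UMIs per cell, 79.1% of WT and 78.2% of KO resident macrophage-like cells had a UMI of both. Dusp1 was found in 90.2% of WT cells of this class with a Zfp36 UMI and in 82.8% of those without. Of the 110 KO cells, 93 had a Zfp36 UMI and 92.5% of these had Dusp1, against 52.9% of those without. Cells without a Zfp36 UMI were few in both libraries, since 205 of 234 WT cells had one. Neither contrast was tested. For inflammatory monocyte-like cells the share with both was 84.6% in WT and 71.2% in KO. Of the 9 members, the median resident macrophage-like cell had 4 in each library, and the median inflammatory monocyte-like cell 4 in WT and 3 in KO.

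Dusp2, which acts on ERK and p38 in the nucleus, had the lowest ratio of the members in resident macrophage-like cells, where its interval overlapped that of Dusp5. Resident macrophage-like cells had 401 (WT) and 165 CPM (KO) (-1.28, interval -1.53 to -1.04), and 113 of 234 WT and 33 of 110 KO cells had a UMI at equal depth. Inflammatory monocyte-like cells were at 435 and 233 CPM (-0.90, interval -1.04 to -0.77, overlapping those of Zfp36l1 and Dusp5), with -0.51, -0.57 and -1.78 in the 3 clusters, and 55.3% and 32.5% of cells. Neutrophil-like cells were at 881 and 459 CPM (-0.94). For comparison, 2.15% of WT epithelial cell-like cells (median depth 18679 UMIs), which do not belong to the lineages that use Dusp2, had a UMI at equal depth, far under the WT macrophage share. In the 17 KO epithelial cell-like cells Dusp2 was at 59.2 CPM (interval 27.1 to 112), from 9 UMIs, against 9.72 CPM in WT, so the background of the KO library is less well known. The steepest ratio was in eosinophil-like cells (255 and 34.2 CPM, -2.90), but it rests on 70 and 16 UMIs, with 5 cells holding 41.4% of the WT UMIs. In this class the 10 resident macrophage markers summed to 894 CPM in WT and 250 CPM in KO, with 2 at 0 in each, and the 6 plasma cell markers to 3408 and 57.7 CPM, with 1 and 3 at 0. The 8 neutrophil markers stood at 7108 and 7362 CPM, with 0 at 0. Of the eosinophil markers Ccr3 was at 770 and 977 CPM, and Epx, the eosinophil peroxidase gene, had 0 UMIs in both. The part of other cells in the Dusp2 ratio was not tested.

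In T cell-like and NK cell-like cells Dusp2 went the other way. The 26 WT and 41 KO NK cell-like cells were at 664 and 1273 CPM (0.94, interval 0.59 to 1.29). T cell-like cells were at 288 (WT) and 468 CPM (KO) (0.70, interval 0.47 to 0.93), and 33.3% and 47.7% had a UMI at equal depth. The ratio ranged from 0.14 to 0.91 over the alternatives, and at 0.14, with the 3 clusters of the class weighted equally, the 1.5-fold call was lost, as it was with every barcode (0.44) and at resolution 0.5 (0.46). The libraries filled these clusters unequally. The cluster led by Lef1 and Tcf7 had the highest Dusp2 level, 740 CPM in WT and 683 in KO (-0.12, with an interval that holds 0), and held 27 WT and 30 KO cells. The cluster led by Gzma, Gzmb and Cd7 held 142 WT and 33 KO cells, with Dusp2 at 251 and 513 CPM (1.03, interval 0.69 to 1.36), and the cluster led by Icos, Tnfrsf4 and Ctla4 was at -0.65 with an interval that holds 0. Over the T cell-like class the 7 NK cell markers, Gzma and Prf1 among them, summed to 11017 CPM in WT, with 1 at 0, and to 42.5 CPM in KO, with 2 at 0, and Cd8a was at 277 and 38.8 CPM, so these genes of cytotoxic cells were nearly absent from the KO cells of the class. The part of this make-up in the Dusp2 ratio was not tested. In cDC1-like cells Dusp2 was level in the main setting, at 216 CPM in both libraries. With the stricter cell filter its ratio was 0.40, and the sign held under 2 of 12 alternatives. The cDC1-like cluster led by Xcr1 and Clec9a gave 0.18 (interval 0.006 to 0.36).

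Dusp4 had enough UMIs in 4 of 8 classes, and the interval left 0 in 2 of them. B cell-like cells were at 49.7 (WT) and 68.5 CPM (KO) (0.46, interval -0.30 to 1.21). T cell-like cells were at 28.0 (WT) and 62.8 CPM (KO) (1.17, interval 0.46 to 1.87), on 38 and 34 UMIs. The cluster led by Icos, Tnfrsf4 and Ctla4, genes of activated and regulatory T cells, held 20 of the WT and 30 of the KO UMIs, and there Dusp4 was at 75.7 and 206 CPM (1.44, interval 0.58 to 2.33). The ratios in cDC1-like (3.20 and 7.61 CPM, 1.25) and cDC2-like cells (2.82 and 6.85 CPM, 1.28) concern levels of a few CPM, from 7 and 5 WT UMIs, and the second interval holds 0. At equal depth 0.535% and 2.01% of cDC1-like cells had a UMI, a level near that of single molecules.

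Dusp5 was lower in KO in 8 of 8 classes. Its levels were 446 (WT) and 215 CPM (KO) in resident macrophage-like cells (-1.05, interval -1.27 to -0.84), with 46.2% and 31.8% of cells positive at equal depth. This value depended on where the class was drawn, since it was -0.06 when 4000 variable genes were used for clustering and between -1.38 and -0.42 otherwise. Inflammatory monocyte-like cells were at 508 and 281 CPM (-0.85, interval -0.98 to -0.73). With the stricter cell filter this ratio was -0.27 and no longer reached 1.5-fold. Within clusters only the Ly6i and Cxcl9 cluster differed, at -0.60. The others were at -0.09 and -0.10 with intervals that hold 0. The Dusp5 level of WT cells also differed between these clusters, at 534 CPM in the Ly6i and Cxcl9 cluster and 266 CPM in the Chil3 and Ace cluster. The part of cluster make-up in the Dusp5 ratio of the class was not tested. In eosinophil-like cells, the class with most Dusp5, it was at 1288 and 731 CPM (-0.82).

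Dusp6 had enough UMIs in 7 of 8 classes and its interval left 0 in 3 of them. Eosinophil-like cells were at 536 (WT) and 383 CPM (KO) (-0.49, interval -0.81 to -0.16). Resident macrophage-like cells were at 81.7 and 63.0 CPM (-0.37, interval -0.81 to 0.05) and inflammatory monocyte-like cells at 36.5 and 26.1 CPM (-0.48, interval -0.92 to -0.05). In cDC2-like cells it was at 16.9 and 6.55 CPM (-1.37), from 30 and 44 UMIs. With the stricter cell filter this ratio was -0.31 and no longer reached 1.5-fold.

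Dusp16 had no settled direction in the macrophage lineage. Resident macrophage-like cells had 57.3 (WT) and 58.3 CPM (KO) (0.02, interval -0.45 to 0.49), and the sign held under 6 of 14 alternatives, over a range of -0.57 to 0.53. Inflammatory monocyte-like cells had 88.8 and 149 CPM (0.75, interval 0.52 to 0.97). The Chil3 and Ace cluster, with 419 KO UMIs, gave 0.59 (interval 0.08 to 1.15). The Ly6i and Cxcl9 cluster gave -0.22 on 15 KO UMIs, with an interval that holds 0, and the smallest cluster gave -0.67. The class value turned to -0.29 where WT and KO cells were clustered apart. The level of Dusp16 in WT was 85.5 CPM in the Ly6i and Cxcl9 cluster and 108 CPM in the Chil3 and Ace cluster, with overlapping intervals. The latter held most KO cells of the class, and its KO level was 163 CPM. The part of cluster make-up in the class ratio was not tested. Neutrophil-like cells were at 234 and 291 CPM (0.32, interval -0.13 to 0.80). In B cell-like cells Dusp16 was 1.59-fold lower in KO on 38 and 12 UMIs, with an interval that holds 0 (-1.74 to 0.30).

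**Figure D3:**
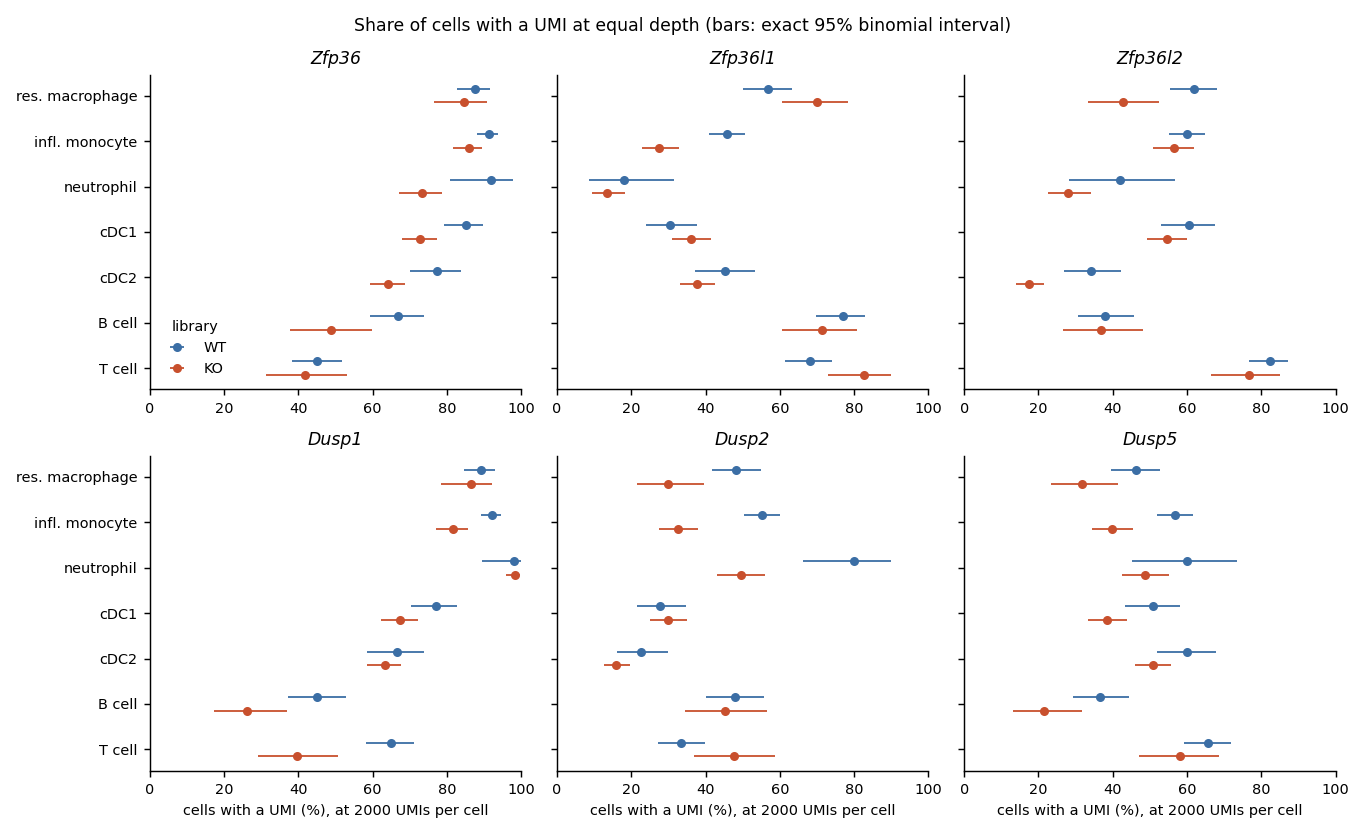
Share of cells with a UMI of each gene (horizontal axis, percent) after thinning to 2000 UMIs, by class and library, with exact 95% binomial intervals; cells with fewer UMIs were left out. The Zfp36 share in resident macrophage-like cells was 87.6% in WT and 84.5% in KO, while for Dusp2 it was 113 of 234 and 33 of 110 cells.

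The ratios were also taken by cluster, and several classes (resident macrophage-like, neutrophil-like, eosinophil-like and B cell-like cells) are a single cluster, so their values recur here. With at least 15 cells of each library, 21 clusters could be compared, and the interval lay below 0 for Zfp36 in 15 of 21 and for Dusp1 in 15 of 20, while 2 and 1 lay above 0. Over all pairs of gene and cluster 19.1% lay below 0 and 11.6% above. Zfp36 was above 0 in the cycling cDC1-like cluster and in an unnamed cluster of low depth. Zfp36l1 was below 0 in 7 of 20 clusters and above in 3, Zfp36l2 below in 13 of 20 and above in 2, Dusp2 below in 9 of 18 and above in 3, and Dusp5 below in 11 of 19 and above in 1, with 7 that hold 0. Dusp6 was below 0 in 2 of 10 and above in 0, Dusp16 below in 1 of 12 and above in 2, and Dusp4 could be compared in 2, with 1 above 0. The lowest Zfp36 ratio was -1.93, in an NK cell-like cluster of 26 WT and 41 KO cells led by Prf1, Eomes and Ifng.

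**Figure D4:**
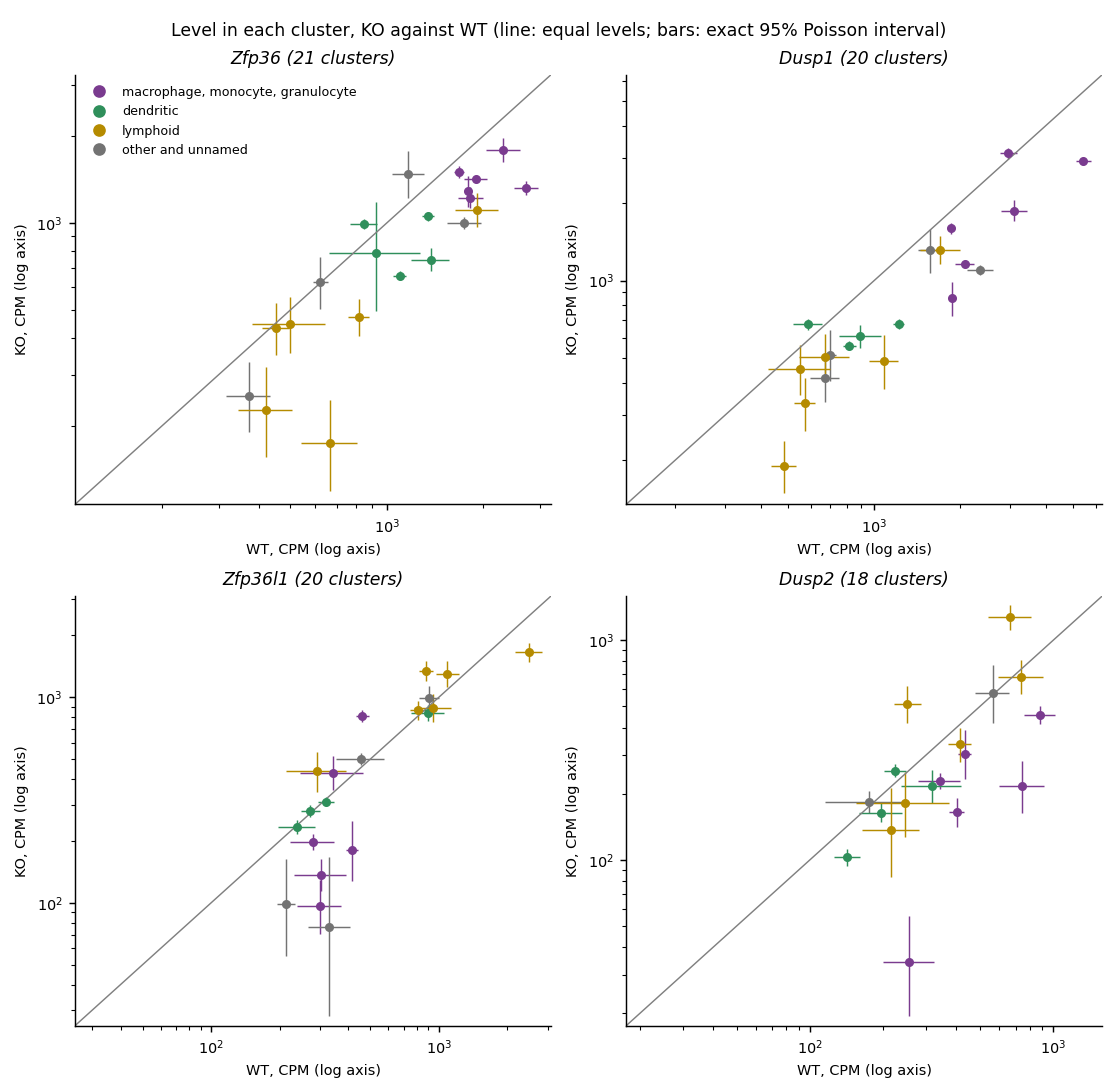
Level in each cluster with at least 15 cells of both libraries and 50 UMIs, KO (vertical) against WT (horizontal), in CPM on log axes, for Zfp36, Dusp1, Zfp36l1 and Dusp2; bars are exact 95% Poisson intervals and the line marks equal levels. For Zfp36, 15 of 21 clusters had an interval of the ratio below 0, and for Zfp36l1 7 of 20 did.

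The mRNAs that Zfp36 is known to degrade were set beside it, from a list of 16 (Tnf, Csf2, Il2, Il3, Il6, Il10, Il22, Il23a, Ifng, Il1b, Cxcl1, Cxcl2, Ccl2, Ccl3, Ptgs2, Lif). In resident macrophage-like cells 8 of 10 with enough UMIs were at least 1.5-fold higher in KO and 1 was lower (7.19% and 22.1% of all genes), with a median log2 ratio of 1.69 beside -0.22 for all genes. In the same class 5 of 17 dissociation stress genes were higher and the median mitochondrial share was 3.82% in WT and 5.55% in KO, and their part in the target ratios was not tested. Ccl3, a chemokine of activated macrophages, was at 415 (WT) and 3154 CPM (KO) (2.93, interval 2.81 to 3.04), and Tnf, the classical Zfp36 target, at 292 and 1488 CPM (2.35, interval 2.21 to 2.49). Cxcl1, which attracts neutrophils, was at 568 and 2097 CPM (1.88), and Il6 at 7.96 and 33.4 CPM (2.07). Inflammatory monocyte-like cells had 6 of 11 higher and 2 lower (median 1.23, beside 8.06%, 17.9% and a median of -0.15 for all genes), with Lif at 8.95 and 38.7 CPM (2.11), Ccl3 at 357 and 1199 CPM (1.75), Ccl2 at 254 and 805 CPM (1.66) and Cxcl1 at 365 and 1098 CPM (1.59).

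The targets of the other classes are given beside the shares of all genes. Summed over the list, targets were at 12813 (WT) and 31040 CPM (KO) in resident macrophage-like cells and at 12601 and 19819 CPM in the inflammatory monocyte-like class. Neutrophil-like cells had the highest sums, 40935 and 40160 CPM, with 0 of 8 targets higher and 3 lower (median -0.40, 14.7% and 18.0% of all genes). Eosinophil-like cells had 1 of 8 higher and 5 lower (median -0.76, 18.8% and 13.7% of all genes), on sums of 7724 and 7166 CPM. Dendritic cells held less, with 1580 and 1742 CPM in cDC1-like cells (3 of 10 higher, 1 lower, median -0.10, 6.19% and 10.6% of all genes) and 3528 and 3645 CPM in cDC2-like cells (4 of 12 higher, 2 lower, median 0.50, 9.11% and 21.7% of all genes). T cell-like cells had 693 and 621 CPM (2 of 6 higher, 3 lower, median -0.57, 9.23% and 26.6% of all genes). B cell-like cells had 1135 and 175 CPM, with 0 of 4 higher and 4 lower (median -3.23, 7.03% and 16.5% of all genes), and the neutrophil markers given above for that class, at 1040 and 66.0 CPM, moved with these targets. Their part in the B cell-like values was not tested, nor was any relation between the target ratios and those of Zfp36.

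**Figure D5:**
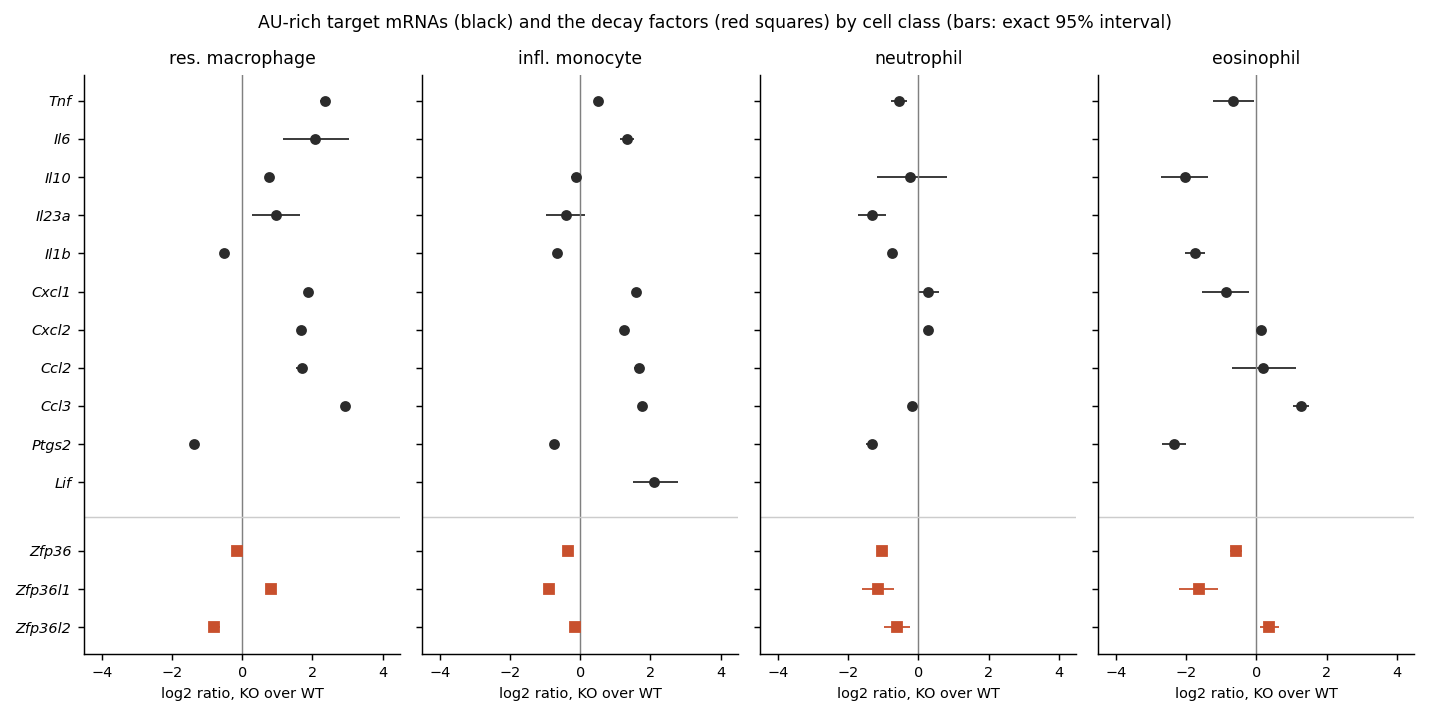
Log2 ratio, KO over WT (horizontal axis), of the AU-rich target mRNAs with enough UMIs (black points) and of Zfp36, Zfp36l1 and Zfp36l2 (red squares) in 4 classes; bars are exact 95% intervals. Tnf and Ccl3 lie at 2.35 and 2.93 in resident macrophage-like cells, and no target reached 1.5-fold higher in neutrophil-like cells.

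Other parts of the 2 pathways were counted in the macrophage classes, and each count is read beside the shares of all genes there, 7.19% higher and 22.1% lower in resident macrophage-like cells (median -0.22) and 8.06% and 17.9% in the inflammatory monocyte-like class (median -0.15). Of the deadenylation and decapping partners through which Zfp36 acts, 0 of 13 were higher and 4 were lower in resident macrophage-like cells (median -0.45) and 0 of 14 higher and 4 lower in inflammatory monocyte-like cells (median -0.40). The 4 were Dcp2, a decapping enzyme, at 39.3 and 17.2 CPM (-1.19), Edc4, Cnot8 (interval to 0.01) and Cnot1, the scaffold of the deadenylase complex, at 98.1 and 61.1 CPM (-0.68). The 4 of the inflammatory monocyte-like class were Edc4, Cnot3, Cnot8 and Cnot6, at -0.92 to -0.71. Among 10 other regulators of AU-rich mRNA, 0 were higher and 3 lower in resident macrophage-like cells, namely Khsrp, a protein that promotes decay, at 76.4 and 42.0 CPM (-0.86), Btg1, an activator of deadenylation, at 2523 and 1431 CPM (-0.82), and Rc3h1, which encodes Roquin-1, at 96.6 and 56.3 CPM (-0.78). Khsrp was lower in inflammatory monocyte-like cells as well, with Tia1, and these were the 2 of 10.

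The kinases on which the phosphatases act were counted against the same shares. Of 11 MAP kinases and linked kinases 0 were higher and 2 lower in resident macrophage-like cells, a share near that of all genes, Mapk3 (ERK1) at 116 and 67.8 CPM (-0.78) and Map2k7 at 41.9 and 25.8 CPM (-0.70). Both were lower in inflammatory monocyte-like cells too (-0.72 and -0.63), where Mapkapk3 (0.76) and Mapk9 (0.87) were higher. Of the listed ERK-responsive immediate-early genes, 4 of 14 were higher and 2 lower in resident macrophage-like cells (7.19% and 22.1% of all genes). The 4 were Atf3 at 327 and 870 CPM (1.41), Egr1 at 569 and 1232 CPM (1.11), Egr2 (1.40) and Phlda1 (0.88). Egr1, Fos, Fosb, Junb, Ier2, Ier3, Atf3 and Nr4a1 also belong to the dissociation stress genes, so the counts of these 2 lists are not separate results. The part of ERK in these ratios was not tested. In inflammatory monocyte-like cells 2 of 16 were higher, Fosl1 at 24.4 and 100.1 CPM (2.03) and Atf3, and 2 were lower, Egr3 and Junb, the latter at 3643 and 2053 CPM (-0.83). Among the other feedback genes, Spred1, an inhibitor of Ras signalling, was the 1 of 3 higher in resident macrophage-like cells at 95.5 and 181 CPM (0.93), and Dusp7 the 1 of 4 other phosphatases, at 13.8 and 37.2 CPM (1.43).

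Zfp36, Dusp1 and several immediate-early genes also respond to tissue dissociation. Of 17 dissociation stress genes 5 were higher and 2 lower in KO resident macrophage-like cells (median 0.34), beside 7.19% and 22.1% of all genes, and 3 and 1 in inflammatory monocyte-like cells (median 0.05), beside 8.06% and 17.9%. Heat shock genes led, with Hspa1b at 396 and 1455 CPM (1.88) and Hspa1a at 449 and 1417 CPM (1.66) in resident macrophage-like cells. Their median mitochondrial share was 3.82% in WT and 5.55% in KO. Markers of plasma cells, which should be absent from macrophages, summed to 1186 CPM in WT and 30.6 CPM in KO resident macrophage-like cells and to 1107 and 39.0 CPM in inflammatory monocyte-like cells, with 0 and 1 of 6 markers at 0 in the resident class. The 10 inflammatory monocyte markers summed to 1037 CPM in WT and 294 CPM in KO resident macrophage-like cells, with none at 0, and the 8 neutrophil markers to 614 and 392 CPM. Other marker sets were higher in KO resident macrophage-like cells, those of cDC2 at 266 and 601 CPM (0 of 7 at 0), of innate lymphoid cells at 51.5 and 178 CPM (2 and 4 of 7 at 0) and of T cells at 46.7 and 137 CPM (0 of 8 at 0). The part of dissociation, free RNA and admixed cells in the ratios of the members, of the Zfp36 targets and of the other lists was not tested.

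Promoters were examined for 7 of the 9 genes that had an entry in the RefSeq table (GRCm38.p6, 250 bases before to 50 after the start), in which Zfp36l2 and Dusp4 have none. Searches on both strands covered the CArG box bound by serum response factor, the full cyclic AMP response element, the AP-1 site TGACTCA and the RUNX core TGTGGT, none of which contains another. Of 32851 promoters, 1.63%, 1.79%, 5.20% and 16.8% hold them. Zfp36 and Dusp5 each hold a CArG box, Dusp5 2 of them side by side, and Dusp1 holds a full cyclic AMP response element. The RefSeq start of Zfp36 lies inside the GENCODE main transcript, downstream of the start given above, so its window is not upstream of that transcript. The matches lie 58 to 49 bases before the RefSeq start of Zfp36 (chr7:28379267-28379296, minus strand), 82 to 63 before that of Dusp5 (chr19:53529058-53529087, plus strand) and 143 to 136 before that of Dusp1 (chr17:26508597-26508626, minus strand). The windows of 30 bases are shown, motif in capitals, because they are the 3 windows in which a searched motif was found. A motif match says nothing of the differences between the libraries.
Zfp36 promoter: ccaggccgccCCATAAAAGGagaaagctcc
Dusp5 promoter: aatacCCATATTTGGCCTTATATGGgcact
Dusp1 promoter: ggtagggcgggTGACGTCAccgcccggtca

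None of the 7 windows held the AP-1 or the RUNX letters, and Zfp36l1, Dusp2, Dusp6 and Dusp16 held none of the 4 motifs. This says only that these letters are not in these windows.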

How the data were processed

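Colonic lamina propria cells of 1 WT and 1 KO pool were profiled by 10x Genomics 3′ libraries. The authors deposited UMI counts per gene and barcode, made with Cell Ranger 3.0.2 per the file headers, with mm10 and Seurat 4 named in the submitters' processing notes. The counts were not normalized. They hold filtered barcodes, and UMIs of 1 molecule are counted once, so intervals cover counting error only and p-values were not computed, because 1 library per genotype leaves no replicate. Deeper cells carry less error and more detected genes. No per-sample column was left unused.

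Cells with 200 to 6000 genes and at most 15% mitochondrial UMIs were kept, as in the study, and no doublet was removed in the main setting. Counts were scaled to 10000 per cell and logged. Leiden clustering in place of the study's DESC used 2000 variable genes (113 genes, members and lists included, kept out), 30 components, 15 neighbours and resolution 1 (scanpy 1.11.5, leidenalg 0.10.2, scikit-learn 1.9.0, scipy 1.17.1, numpy 2.4.6, Python 3.11.15). Clusters were named from marker genes, so a difference from the study may come from rebuilt names. UMIs were summed per class and library as CPM with exact Poisson intervals, KO to WT ratios were given exact conditional binomial intervals, and shares exact Clopper-Pearson intervals, unthinned and thinned to 2000 UMIs. The interval script was tested on simulated data.

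The members, gene lists and markers were chosen with earlier results of these data known. All 9 members are named, with the 3 genes most like each among genes of at least 200 UMIs, and from each list at most 4 genes per macrophage class that reach 1.5-fold, by size. Alternatives changed the cell filter, the clustering, the class rule, doublets, the denominator, the averaging, the minimum of UMIs, the added CPM and the fold. Sequences come from the GENCODE M21 annotation on GRCm38 and RefSeq (GRCm38.p6).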

Additional observations from a re-analysis of the deposited data

Results flagged for a closer look

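Zfp36l1 stood 0.82 on the log2 scale above WT in KO resident macrophage-like cells and at -0.88 in inflammatory monocyte-like cells, so the KO to WT ratios of the 2 classes differed by 1.70. It was singled out because the only library of each genotype gave opposite directions in the 2 classes, and with 1 library per genotype the difference was not tested.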

How the results depend on the processing

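The Zfp36 ratio of resident macrophage-like cells (-0.16) was -0.30 with the stricter cell filter, -0.51 with every barcode, -0.52 at resolution 0.5, -0.49 with each library clustered alone, -0.32 with cells classed by marker score, 0.058 after subtraction of the median of all genes and -0.50 with the Retnla, Lpl and Ccl24 cluster added. In inflammatory monocyte-like cells (-0.34) it was -0.61, -0.53, -0.43, -0.48, -0.47 and -0.19 under the first 6 of these, -0.54 with 4000 variable genes and -0.42 with clusters weighted equally. The last cluster setting and the added cluster were chosen after seeing the data. Dusp16 in inflammatory monocyte-like cells (0.75) turned to -0.29 with each library clustered alone and to -0.10 (-0.095) by marker score. The count of members 1.5-fold higher went from 1 to 0 in resident macrophage-like cells with every barcode, resolution 0.5, libraries alone, a fold of 2 or the added cluster, and in inflammatory monocyte-like cells with the stricter filter, resolution 0.5, 4000 variable genes, libraries alone, marker score, a fold of 2 or weighted clusters. The 4 members lower there became 2 with every barcode, resolution 0.5 or 4000 variable genes and 0 at a fold of 2. Over all classes the 6 pairs higher became 3 (of 60, stricter filter), 2 (of 48, every barcode), 2 (of 57, resolution 0.5), 2 (of 56, libraries alone), 3 (of 51, at least 200 UMIs) and 3 (fold of 2). The 24 lower became 9 at a fold of 2 and 18 after subtraction of the median of all genes. The cause was not tested. Of 867 alternative values of the 66 member ratios, 650 stayed within the counting interval of the reported value, 215 moved outside it and 2 changed sign while called. No paired analysis was possible because each genotype has 1 library. Depth limits Dusp4, with 8 and 3 UMIs in resident macrophage-like cells, and every statement on eosinophil-like cells at equal depth, where 23 WT and 28 KO cells reached 2000 UMIs.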
